A study of Rattus norvegicus with 18 samples.

Results

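Vwf, Selp, Sele, Icam1 and Vcam1 encode the proteins with which endothelium stops platelets and leukocytes. They were taken as the rows of the deposited expression table whose platform gene symbol is one of these 5 names, and all 5 were found, each with 1 probe set, among the 11018 genes with 1 symbol. The study hybridised 18 samples to Affymetrix rat arrays. The groups were lung microvascular endothelial cells taken fresh (LMEC_0h, 5 arrays), liver sinusoidal endothelial cells taken fresh (LSEC_0h, 5 arrays), and liver sinusoidal endothelial cells after 2 h (LSEC_2h, 4 arrays) and 42 h (LSEC_42h, 4 arrays) of culture on collagen. Both cell types had been purified by tissue digestion, a density gradient and magnetic sorting, and the labels state neither strain nor age nor sex of the rats. Whether the replicate arrays stem from different animals is not stated either. The p-values below therefore refer to the scatter between these samples, part or all of which may be technical.

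Weibel-Palade bodies are rod-shaped storage granules of endothelial cells. They are built around the multimers of von Willebrand factor (Vwf), which catches platelets at damaged vessel walls, and they carry P-selectin (Selp) in their membrane. On release, P-selectin reaches the cell surface within minutes and lets leukocytes roll. E-selectin (Sele) is not stored but made anew after cytokines such as TNF and IL-1, and also supports rolling. ICAM-1 (Icam1) and VCAM-1 (Vcam1) bind leukocyte integrins and hold the cells firmly. Selp, Sele, Icam1 and Vcam1 are textbook targets of the transcription factor NF-kB in endothelium. Sinusoidal endothelium of the liver is known for few Weibel-Palade bodies and for low selectin levels, in contrast to the endothelium of larger veins.

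Every value below is a deposited log2 level per probe set, so a difference of 1 is a 2-fold change. Levels of different genes are not set against each other, because each probe set has its own brightness. A gene was called where the adjusted p of limma's fit over all genes was under 0.05, and "rose" or "fell" is used of called differences alone. In these sorted populations, fewer cells carrying a transcript and less of it per cell cannot be told apart.

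Some features of the arrays touch the results that follow. All 8 arrays of cultured cells carry the bacterial poly-A control transcripts that are added before labelling, and the fresh arrays do not. Their 24 probe sets averaged 5.66 to 5.68 per array in LMEC_0h, 5.72 to 5.74 in LSEC_0h, 7.62 to 8.37 in LSEC_2h and 7.68 to 7.86 in LSEC_42h. Culture and this difference in labelling therefore cannot be told apart. In LSEC_0h, where these controls were absent, single control probe sets averaged 5.48 to 6.26. The LSEC_0h means of Selp and Sele lie inside that range, so the size of folds against them is uncertain. The Actb 3′ minus 5′ difference, a measure of RNA integrity, was 0.91 to 1.28 in LSEC_0h, 1.63 to 1.69 in LSEC_2h and 1.81 to 1.89 in LSEC_42h, and its part in the results was not tested. A list of 16 endothelial markers averaged at least 9.75 on every array. Of these, 12 were lower than in LSEC_0h at 2 h and 12 at 42 h, beside 32.7% and 20.8% of all genes. Their median differences were -1.19 and -0.78, beside 0.08 and 0.05 over all genes. Sox18, an endothelial transcription factor, averaged 11.1 in LSEC_0h, 8.06 in LSEC_2h and 11.1 in LSEC_42h. The part of these lower endothelial markers in the culture results was not tested. Cdh5, the endothelial cadherin, averaged 11.9 in LMEC_0h, 11.7 in LSEC_0h, 10.4 in LSEC_2h and 11.3 in LSEC_42h.

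Vcam1 and Icam1 are shown first in sequence, because they had the largest differences of the 5 genes in the liver cells at 2 h and NF-kB is a known regulator of both. The stretches are RefSeq's, on build GRCr8, read 5′ to 3′ on the strand of the gene and ending at the last base before the annotated gene. The motif search ran over the 250 upstream bases of the promoter table, which for Icam1 extend past the 93 bases shown into the annotated gene. Capitals mark every match, on either strand and merged where they overlap, to the NF-kB motif (3 G, any 5 bases, 2 C) or to the shorter form GGNNNTTCC, which was added after the sequences had been seen.

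Vcam1, chr2:206742784-206743033, minus strand: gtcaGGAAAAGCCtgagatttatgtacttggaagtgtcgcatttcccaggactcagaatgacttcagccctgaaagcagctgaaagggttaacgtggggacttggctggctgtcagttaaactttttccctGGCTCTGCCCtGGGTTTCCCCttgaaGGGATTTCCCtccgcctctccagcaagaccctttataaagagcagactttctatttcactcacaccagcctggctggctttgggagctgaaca

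Icam1, chr8:27829595-27829687, plus strand: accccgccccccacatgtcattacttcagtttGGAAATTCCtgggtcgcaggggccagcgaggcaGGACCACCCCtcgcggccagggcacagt

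In the Vcam1 window the matches GGGTTTCCCC and GGGATTTCCC begin 108 and 93 bases before the table's gene start, and each reads as a match on both strands. In Icam1 the short match GGAAATTCC, which also matches on both strands, begins 218 bases before the start used by the promoter table. The 10-letter NF-kB motif occurs in the 250 upstream bases of 42.3% of 33469 rat promoters and GGNNNTTCC in 15.4%, so a match alone sets neither gene apart. A narrower pattern (3 G, any 2 bases, 3 T, 2 C), held by 1.3% of promoters, occurred in neither. It is not the only way to narrow the 10-letter motif, so its absence does not show that stringent sites are lacking. The AP-1 motif TGANTCA (6.3%) and the GATA motif AGATAA (10.3%) had no match in either 250-base window. TATAAA (12.9%) had a match in both windows, for Icam1 beyond the stretch shown. These matches are descriptions of letters, and say nothing of binding. The 250-base window of Sele lies inside the annotated gene and is not shown. It had matches to the ETS motif GGAA, found in 93.2% of promoters, and none to the NF-kB, AP-1, GATA or TATAAA motifs. Promoter sequences of Vwf and Selp were not among the sources used here.

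Von Willebrand factor separated the lung cells from every liver group. Vwf had 12.66, 12.67, 12.16, 12.50 and 12.13 in the LMEC_0h arrays, against 6.61, 6.59, 6.69, 6.86 and 7.01 in the LSEC_0h arrays. The groups lie far apart and neither spreads by more than 0.54. The difference was 5.67 ± 0.12 (SE, limma), a 51.0-fold higher level in the lung cells (adjusted p = 1.08e-16). All 5 genes were higher in the lung cells, in a comparison where 19.8% of all genes were called higher and 27.7% lower.

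In cultured liver cells Vwf had 7.80, 7.74, 7.84 and 8.08 at 2 h, and 6.21, 6.35, 6.44 and 6.25 at 42 h. All 4 arrays at 2 h lie above all 5 arrays of fresh liver cells, and all 4 arrays at 42 h lie below them. Vwf rose by 1.11 ± 0.12 at 2 h against LSEC_0h (limma, adjusted p = 4.99e-07) and fell by 0.44 at 42 h (limma, adjusted p = 0.00707). Its mean at 42 h, 6.31, lies near the 6.26 that single absent controls reached in LSEC_0h, so the size of that fall is uncertain. Between the culture times it was 2.93-fold lower at 42 h than at 2 h (limma, adjusted p = 2.35e-08). Even the highest liver group, at 2 h, stood 23.6-fold below the lung cells. The order was LMEC_0h, LSEC_2h, LSEC_0h and LSEC_42h, and the difference of every neighbouring pair was called.

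P-selectin had 7.98, 10.49, 8.25, 9.09 and 10.18 in the LMEC_0h arrays, against 6.21, 6.23, 6.20, 6.23 and 6.36 in the LSEC_0h arrays. The lung arrays scatter over 2.51 log2 units, while the fresh liver arrays form a tight group at the level of absent controls. Selp was an estimated 7.73-fold higher in the lung cells (limma, difference 2.95 ± 0.38 SE, adjusted p = 4.75e-06).

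In culture Selp had 7.94, 7.42, 7.54 and 7.91 at 2 h, and 7.86, 6.88, 8.02 and 7.08 at 42 h. Every cultured array lies above every fresh liver array, and the 42 h arrays fall into 2 high and 2 low ones that enclose those of 2 h. Selp rose by an estimated 2.74-fold at 2 h (limma, adjusted p = 0.00362) and 2.32-fold at 42 h (limma, adjusted p = 0.0186). The 95% intervals of these log2 differences were 0.60 to 2.30 and 0.36 to 2.06. The call at 42 h was lost without LSEC_42h array 1 (limma, adjusted p = 0.0584) or array 3 (limma, adjusted p = 0.0654). The fit shares its spread over all groups, including the scattered lung arrays. Without lung arrays 19 and 22, a choice made with their values known, the call was kept (limma, adjusted p = 0.000497). Between LSEC_42h and LSEC_2h the difference was -0.24, with a 95% interval of -1.14 to 0.66, and was not called. The order was LMEC_0h, LSEC_2h, LSEC_42h and LSEC_0h, and of the neighbouring pairs only LSEC_2h and LSEC_42h had no called difference.

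E-selectin had 7.54, 10.05, 8.13, 8.47 and 9.77 in the LMEC_0h arrays, against 5.60, 5.63, 5.67, 5.73 and 5.78 in the LSEC_0h arrays. As with Selp, arrays 19 and 22 are the high lung arrays and all fresh liver arrays lie at background. Sele was an estimated 8.64-fold higher in the lung cells (limma, difference 3.11 ± 0.36 SE, adjusted p = 1.15e-06).

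In culture Sele had 7.44, 6.75, 7.21 and 7.0 at 2 h, and 6.10, 6.74, 6.42 and 5.76 at 42 h. The arrays of 2 h all lie above the fresh ones, and 1 array of 42 h lies among the fresh ones. Sele rose by an estimated 2.68-fold at 2 h (limma, adjusted p = 0.00266). At 42 h it averaged 6.25 ± 0.42, against 5.68 ± 0.07 in LSEC_0h, and the difference of 0.57 was not called (adjusted p = 0.224). The difference of LSEC_42h from LSEC_2h, -0.85, was not called either (adjusted p = 0.0651). The order was LMEC_0h, LSEC_2h, LSEC_42h and LSEC_0h, in which the differences of LSEC_42h from both neighbours were not called. The arrays of LSEC_42h and LSEC_2h did not overlap, however, and with only the compared groups in the fit LSEC_42h was called against LSEC_2h (limma, adjusted p = 0.00529) and against LSEC_0h (limma, adjusted p = 0.0116). Sele and Selp are neighbours on rat chromosome 13, with 63.5 kb between them in RefSeq's GRCr8 annotation.

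ICAM-1, the ligand of the leukocyte integrin LFA-1, had 11.44, 12.99, 12.17, 11.93 and 12.94 in the LMEC_0h arrays, against 9.71, 9.53, 9.83, 9.31 and 9.52 in the LSEC_0h arrays. It was 6.57-fold higher in the lung cells (limma, difference 2.72 ± 0.25 SE, adjusted p = 5.43e-08). Unlike the selectins, Icam1 stood well above the controls in fresh liver cells.

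In culture Icam1 had 12.65, 12.42, 12.44 and 12.10 at 2 h, and 9.46, 8.69, 8.75 and 9.23 at 42 h. The arrays of 2 h lie within the range of the lung arrays, and those of 42 h lie below or among the lower fresh liver arrays. Icam1 was 7.08-fold higher at 2 h than in LSEC_0h (limma, difference 2.82 ± 0.26 SE, adjusted p = 5.55e-08) and 10.3-fold lower at 42 h than at 2 h (limma, adjusted p = 1.57e-08). At 42 h it averaged 9.03 ± 0.37, against 9.58 ± 0.20 in LSEC_0h, a difference that was not called (adjusted p = 0.0917). LSEC_2h differed from LMEC_0h by 0.11, with a 95% interval of -0.44 to 0.66. The order was LSEC_2h, LMEC_0h, LSEC_0h and LSEC_42h, and only the difference of the middle pair, LMEC_0h and LSEC_0h, was called. This fit shares its spread over all groups. With only the compared groups in the fit, LSEC_42h was called against LSEC_0h (limma, adjusted p = 0.0191). It was also called with array weights (limma, adjusted p = 0.00805).

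VCAM-1, the ligand of the integrin VLA-4 on lymphocytes and monocytes, had 10.45, 12.11, 10.90, 10.90 and 12.07 in the LMEC_0h arrays, against 8.96, 9.29, 9.54, 9.17 and 9.0 in the LSEC_0h arrays. It was 4.27-fold higher in the lung cells (limma, difference 2.09 ± 0.27 SE, adjusted p = 3.94e-06).

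In culture Vcam1 had 12.29, 11.74, 11.72 and 11.80 at 2 h, and 7.53, 7.95, 8.19 and 7.90 at 42 h. The 2 culture times lie on opposite sides of the fresh liver arrays, with no overlap on either side. Vcam1 rose 6.49-fold at 2 h (limma, adjusted p = 2.38e-07) and was 2.46-fold lower at 42 h than in LSEC_0h (limma, adjusted p = 0.000914). The step between the times was the largest of the 5 genes, 16-fold lower at 42 h than at 2 h (limma, adjusted p = 5.94e-09). LSEC_2h stood 0.60 above LMEC_0h, which was not called (adjusted p = 0.0628). The order was LSEC_2h, LMEC_0h, LSEC_0h and LSEC_42h, and of the neighbouring pairs only LSEC_2h and LMEC_0h had no called difference.

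**Figure D1:**
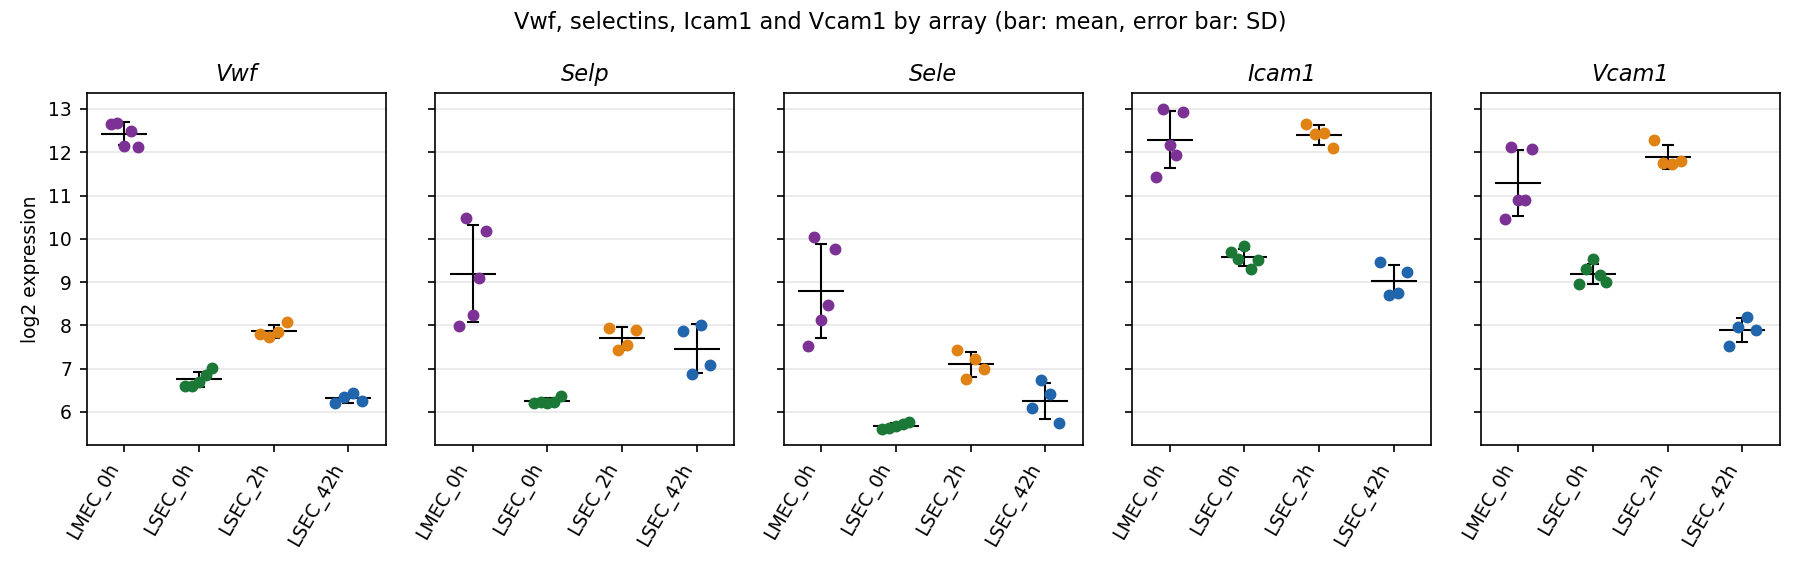
Deposited log2 level of each of the 5 genes on every array, 1 panel per gene, with the groups LMEC_0h, LSEC_0h, LSEC_2h and LSEC_42h from left to right. Points are arrays, horizontal bars are group means and error bars are SDs. Vwf of the lung cells, with a mean of 12.42, stands apart from all liver groups, while Icam1 and Vcam1 at 2 h reach the lung level.

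Read by comparison, all 5 genes rose at 2 h against LSEC_0h, where 41.4% of all genes were called higher and 32.7% lower. At 42 h against LSEC_0h 1 gene was higher (Selp), 2 were lower (Vwf and Vcam1) and 2 were not called, beside 29.7% of all genes called higher and 20.8% called lower. Against LSEC_2h, LSEC_42h was lower for 3 of 5 genes, beside 38.9% of all genes called lower and 33.1% called higher. Against the lung cells, LSEC_2h was lower for 3 of 5 genes (Vwf, Selp and Sele), beside 30.6% of all genes called lower. All 5 were called in LSEC_42h against the lung cells, each of them lower, beside 61.8% of all genes called in either direction. These comparisons share groups and are not independent of each other.

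At 2 h dim genes as a class moved up: the 4987 genes with an LSEC_0h mean under 7 shifted by a median of 0.24, 66.3% of them being called higher, and the brighter genes by -0.33. Vwf, Selp and Sele belong to the dim genes, and their differences of 1.11 to 1.45 exceed that median. Icam1 and Vcam1 belong to the brighter genes and moved by 2.82 and 2.70, while the median of their class was below 0. With quantile normalization, which removes the narrower distribution of the 2 h arrays, the 5 differences at 2 h were 1.24, 1.54, 1.42, 2.77 and 2.69 for Vwf, Selp, Sele, Icam1 and Vcam1. The absent Trpn control transcripts averaged 5.58 to 5.82 per probe set at 2 h and 5.62 to 5.76 in LSEC_0h.

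**Figure D2:**
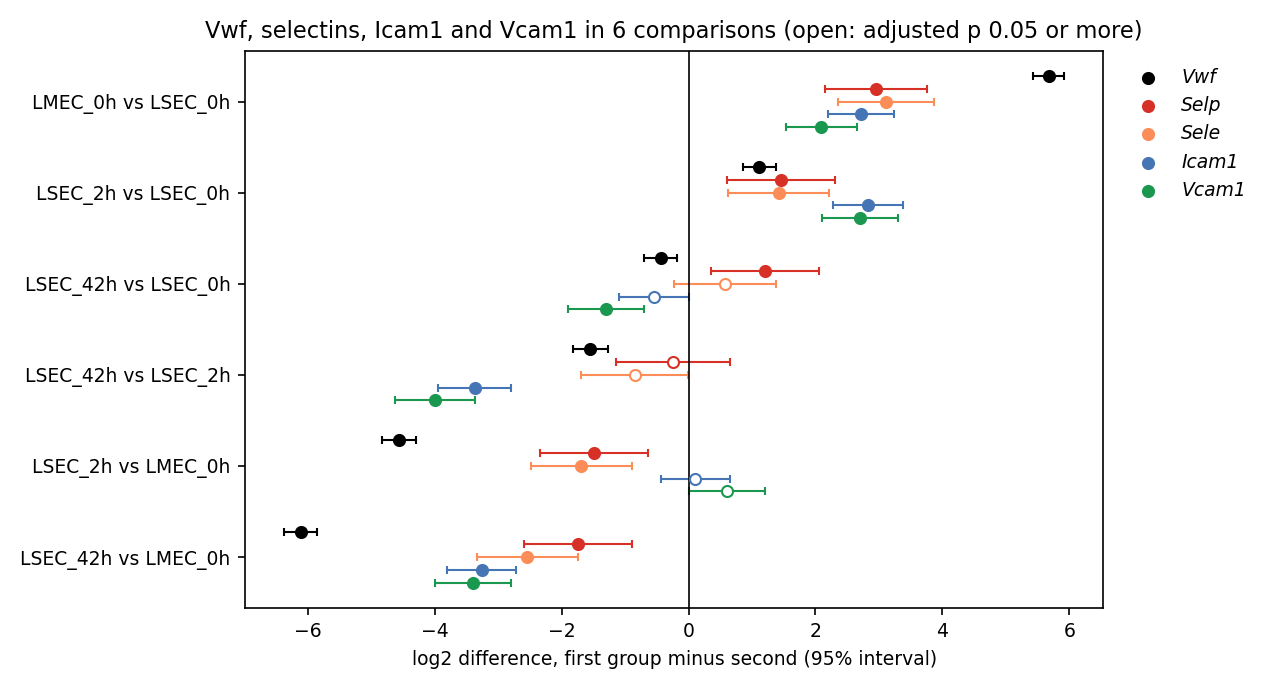
Fitted log2 difference with its 95% interval for each gene in the 6 comparisons, filled where the adjusted p was under 0.05 and open elsewhere, with the first group of each pair on top of the difference. Icam1 and Vcam1 have their most negative values, -3.37 and -4.00, in LSEC_42h against LSEC_2h, and Vwf has its own, -6.11, in LSEC_42h against LMEC_0h.

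The lung arrays differed among themselves in 4 of the 5 genes. Selp spanned 5.71-fold between its lowest and highest lung array, Sele 5.72-fold, Vcam1 3.17-fold and Icam1 2.92-fold, but Vwf 1.45-fold. A gene's median range over the 5 lung arrays was 0.31 log2 units, and 99.6% of genes had a smaller range than Selp. All 4 leukocyte adhesion genes were highest on array 19, next highest on array 22 and lowest on array 18. Vwf was lowest on array 22. The 26 measured genes of the TNF and IL-1 route to NF-kB, on average, were also highest on arrays 22 and 19, with 8.95 and 8.93, against 8.26 to 8.48 on the other 3 lung arrays. The 13 further cargo genes of Weibel-Palade bodies averaged 9.95 on array 19 and 9.93 on array 22, against 9.28 to 9.58 on the other 3. The 13 haemostasis regulators of endothelium averaged 9.15 and 8.90 on arrays 19 and 22, against 8.80 to 8.81. Among lists of other cell types, array 20 was highest for macrophage (8.41), neutrophil (8.19) and lung epithelial (10.6) markers. Array 18 was highest for mesenchymal (8.56) ones, and array 22 for lymphocyte (7.52) and platelet (6.81) ones. What set arrays 19 and 22 apart was not tested.

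Without arrays 19 and 22, a choice made with their values known, the lung cells were 4.57-fold higher than LSEC_0h for Selp (limma, adjusted p = 5.06e-06) and 5.15-fold for Sele (limma, adjusted p = 2.49e-07). Icam1 was then 4.82-fold and Vcam1 2.94-fold higher, and Vwf 51.5-fold. On the same basis LSEC_2h stood above the lung cells by 1.14 for Vcam1 and by 0.56 for Icam1. Arrays 19 and 22 have the highest lung values of these genes, so leaving them out lowers the lung means by construction, and these values are a description.

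**Figure D3:**
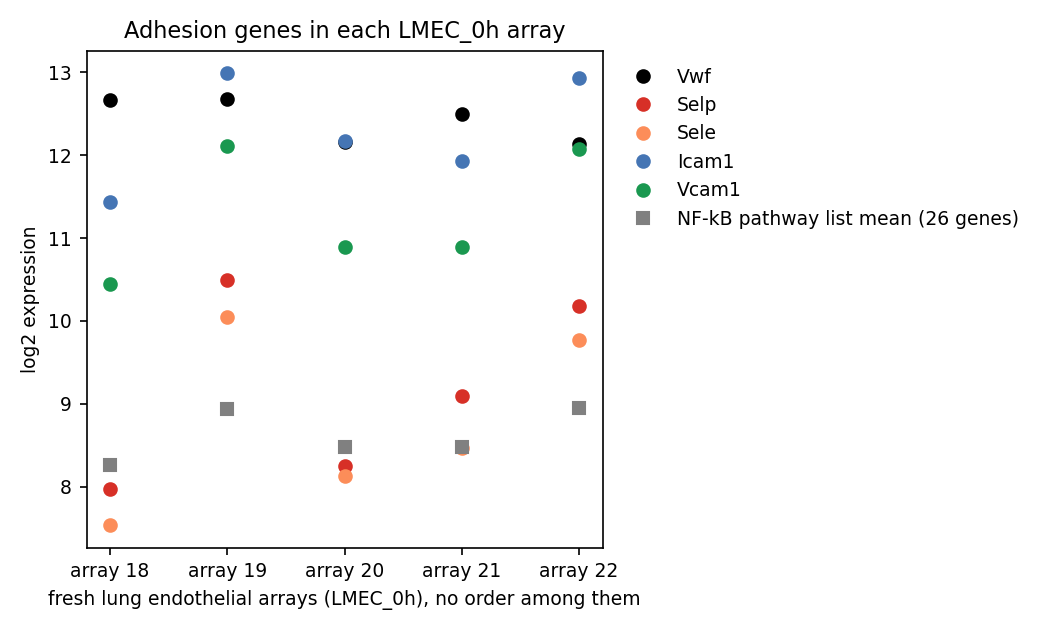
Log2 level of the 5 genes, and the mean of the 26 NF-kB route genes, on each of the 5 LMEC_0h arrays. Array 19 carries the highest value of all 5 genes. Vwf spans 0.54 and Sele 2.52 log2 units over the same arrays.

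Other cargo of Weibel-Palade bodies followed Vwf and Selp in part. Of 13 further cargo genes measured, 7 were higher and 1 lower in LMEC_0h than in LSEC_0h, beside 19.8% of all genes called higher and 27.7% lower. The median difference was 0.55, against -0.04 over all genes. Plat, tissue plasminogen activator, was 22.1-fold higher in the lung cells (limma, adjusted p = 2.61e-14), and Edn1, the vasoconstrictor endothelin-1, 18.8-fold (limma, adjusted p = 5.08e-12). Angpt2, the stored angiopoietin-2 that loosens vessels, was the 1 that was lower, at 7.77 ± 0.23 in LMEC_0h and 8.60 ± 0.36 in LSEC_0h. Cd63, a tetraspanin of the granule membrane that helps retain P-selectin, averaged 10.77 in the lung cells and 10.98 in LSEC_0h and was not called.

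In culture 9 of the 13 cargo genes rose and 2 fell at 2 h, and 8 rose and 3 fell at 42 h, each against LSEC_0h. Over all genes 41.4% rose and 32.7% fell at 2 h, and 29.7% rose and 20.8% fell at 42 h. In LSEC_0h 5 of the 13 had a mean under 6.5, and 66.3% of the dim genes rose at 2 h. Cxcl1, a neutrophil chemokine, was 16.3-fold higher at 2 h and 6.74-fold higher at 42 h. Plat had a course like that of Vwf, 3.98-fold higher at 2 h and 1.28-fold lower at 42 h than in LSEC_0h (limma, adjusted p = 4.2e-09 and 0.0492). Esm1, a proteoglycan of activated endothelium, went the other way between the times. It averaged 12.3 ± 0.47 at 42 h and 9.31 ± 0.44 at 2 h, 7.97-fold higher at the later time (limma, adjusted p = 9.83e-08). Angpt2 and Cd63 were also higher at 42 h than at 2 h, 2.13-fold and 1.56-fold. Ece1, which cleaves endothelin, was 3.33-fold lower at 42 h than in LSEC_0h. Some of these chemokines and Il6 are also NF-kB targets, so the cargo list is not independent of the adhesion genes.

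Genes that form the granules or release them had the following counts. Of 36 measured, 11 were higher and 10 lower in the lung cells than in LSEC_0h, beside 19.8% and 27.7% of all genes, with a median difference of 0.04. At 2 h 11 rose and 17 fell against LSEC_0h, beside 41.4% and 32.7% of all genes, and at 42 h 8 rose and 9 fell, beside 29.7% and 20.8%. These counts are near the shares over all genes, apart from the larger number of falls at 2 h, and are not read as a result about the list. Rab27a, a GTPase that holds maturing granules at the cell edge, was 1.70-fold higher in the lung cells. Vamp8 and Stx4, both SNARE proteins of membrane fusion, were 2.66-fold and 1.96-fold lower at 2 h than in LSEC_0h, and 2.61-fold and 2.63-fold higher at 42 h than at 2 h. Rab3d, a GTPase of secretory granules, was lower than in LSEC_0h at both times, 2.24-fold at 2 h and 2.32-fold at 42 h.

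Of 19 other adhesion molecules of endothelium measured, 12 were higher and 3 lower in the lung cells than in LSEC_0h, beside 19.8% and 27.7% of all genes. Bst1 was 8.05-fold higher, Alcam, a ligand of CD6 on T cells, 7.23-fold, Cd44, the hyaluronan receptor, 6.34-fold, and Aoc3, the adhesion protein VAP-1, 5.08-fold. Jam3, a junctional adhesion molecule, was 3.41-fold lower in the lung cells. At 2 h 9 rose and 7 fell against LSEC_0h, close to the 41.4% and 32.7% over all genes. The falls included Icam2, a constitutive relative of ICAM-1 that binds the same integrin, at 9.49 ± 0.46 in LSEC_2h and 11.3 ± 0.05 in LSEC_0h, a 3.53-fold difference (limma, adjusted p = 4.29e-07). Icam1 and Icam2 thus moved in opposite directions at 2 h. At 42 h 2 rose and 7 fell against LSEC_0h, beside 29.7% and 20.8% of all genes, and Jam2, another junctional adhesion molecule, was 8.42-fold lower (limma, adjusted p = 2.56e-09).

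**Figure D4:**
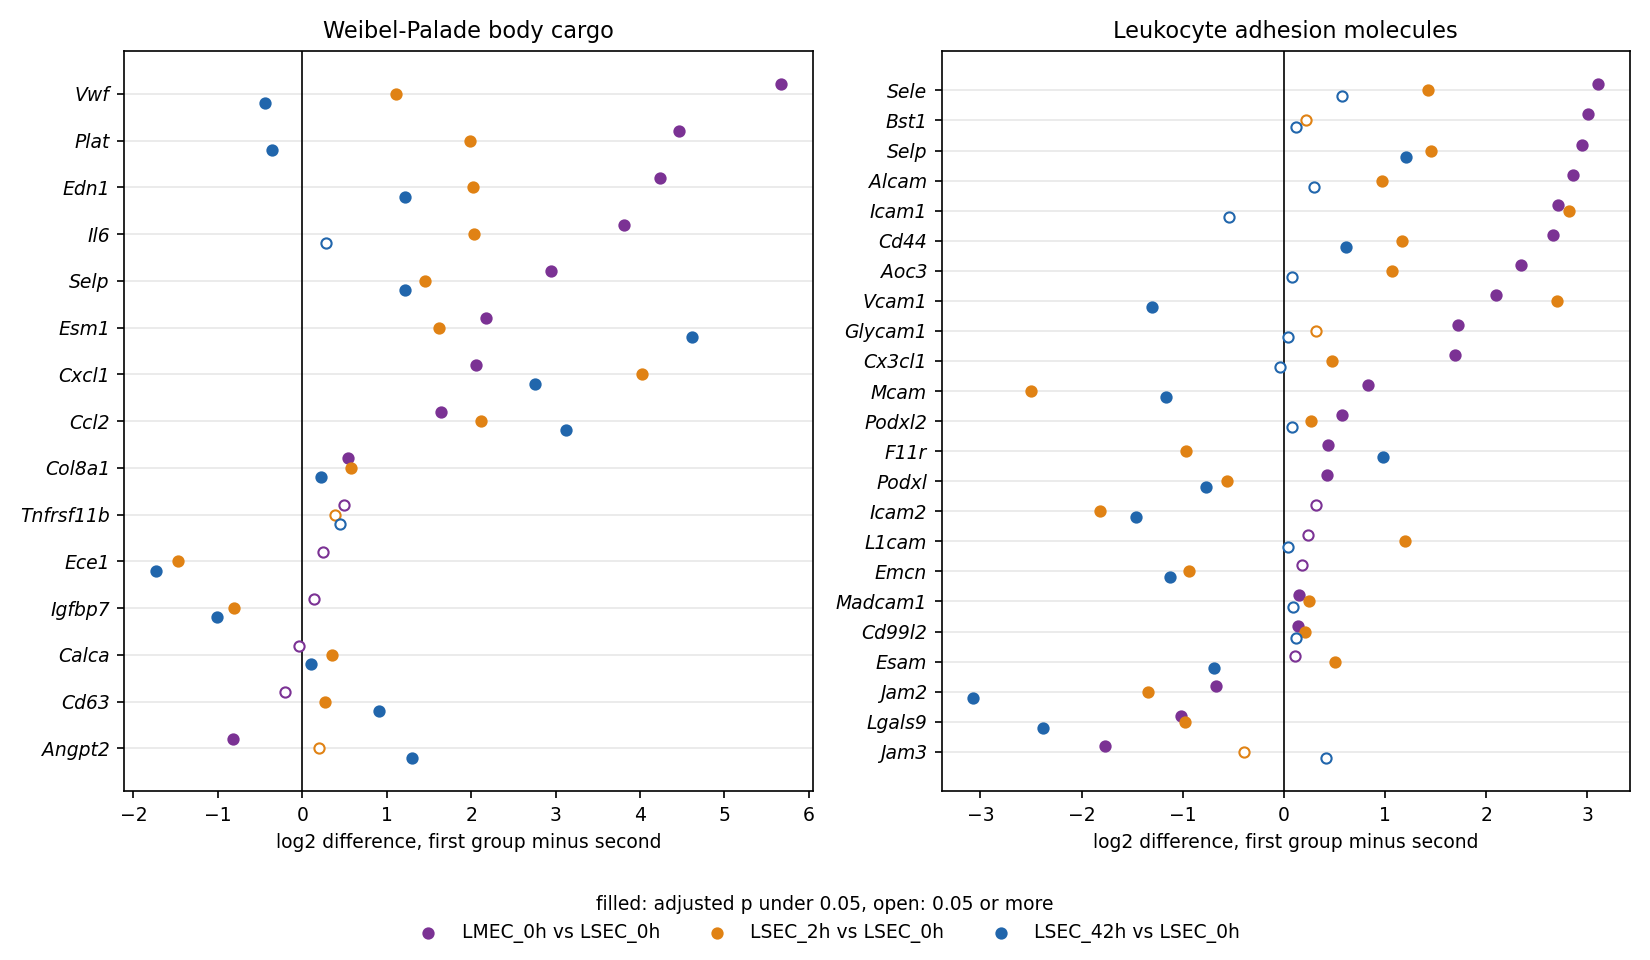
Log2 difference of each measured gene of the cargo list (left panel) and the adhesion list (right panel) in LMEC_0h, LSEC_2h and LSEC_42h, each against LSEC_0h, filled where the adjusted p was under 0.05. The rows run by the lung difference, with Vwf (5.67) and Sele (3.11) on top, and Esm1 has the largest difference at 42 h in its panel, 4.62.

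Genes of the TNF and IL-1 route to NF-kB, the known activator of Sele, Icam1 and Vcam1, rose and fell with the culture times. Of 26 measured, 17 rose and 4 fell at 2 h against LSEC_0h, beside 41.4% and 32.7% of all genes, and the median difference was 0.94 beside 0.08 over all genes. At 42 h against LSEC_2h 7 were higher and 15 lower, beside 33.1% and 38.9% of all genes, with a median of -0.67 beside -0.08. Nfkbia, the inhibitor of NF-kB that is itself its target, averaged 12.8 ± 0.04 in LSEC_2h and 10.8 ± 0.22 in LSEC_0h (3.98-fold, limma, adjusted p = 2.24e-08). Birc3, an inhibitor of apoptosis, was 6.58-fold higher at 2 h and still 3.83-fold higher at 42 h. Nfkb1, the p105/p50 subunit, was 2.87-fold higher at 2 h than in LSEC_0h, while Rela, the p65 subunit, averaged 9.51 in LSEC_2h and 9.46 in LSEC_0h and was not called. The receptor gene Tnfrsf1a ran the other way, 2.15-fold lower at 2 h and 1.83-fold lower at 42 h.

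Markers of other cell types that carry these transcripts moved with some of the differences, and their part in the results was not tested. Platelets hold Vwf and Selp. Of 14 platelet markers, 2 were higher and 4 lower in LMEC_0h than in LSEC_0h, beside 19.8% and 27.7% of all genes, and the list averaged 6.52 to 6.81 on lung arrays and 6.82 to 6.91 on fresh liver arrays. The higher ones were Mmrn1, multimerin, which endothelium also makes, at 8.52 in LMEC_0h and 5.73 in LSEC_0h, and Pf4, platelet factor 4, at 7.08 in LMEC_0h and 6.34 in LSEC_0h. The largest gaps the other way were in Clec1b, at 6.53 in LMEC_0h and 10.2 in LSEC_0h, and Plek, at 8.2 and 10.7. Both lower the list mean of the lung arrays, and Clec1b also averaged 9.70 in LSEC_2h and 10.1 in LSEC_42h. The median difference of the list was 0.03, beside -0.04 over all genes. The platelet glycoprotein genes Gp9 and Gp5, picked after their values were seen as defining markers, had means of 6.39 and 6.08 in LMEC_0h and 6.41 and 6.11 in LSEC_0h, where single absent controls reached 6.21 and 6.26. At 2 h 7 of the 14 were higher than in LSEC_0h, beside 41.4% of all genes and 66.3% of the dim genes, and 11 of the 14 had an LSEC_0h mean under 6.5.

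Larger vessels carry all of these genes. Of 13 venous and arterial markers, 8 were higher and 3 lower in the lung cells than in LSEC_0h, beside 19.8% and 27.7% of all genes. Their array means were 9.04 to 9.59 in LMEC_0h and 7.80 to 7.96 in LSEC_0h. Nr2f2, Ptgs1, Rspo3 and Dll4 of these markers had lower means in LMEC_0h than in LSEC_0h. Nr2f2 averaged 7.25 in LMEC_0h and 9.52 in LSEC_0h. Alveolar epithelium carries Icam1. Of 15 lung epithelial and mesothelial markers, 12 were higher and none lower in the lung cells, beside 19.8% and 27.7% of all genes. Their median difference was 2.86, with array means of 8.84 to 10.6 in LMEC_0h and 6.32 to 6.58 in LSEC_0h. Sftpc, a surfactant protein of alveolar cells, averaged 13.2 in LMEC_0h and 6.20 in LSEC_0h. Mesenchymal cells can carry Vcam1 and Icam1. Of 19 mesenchymal markers, 15 were higher and 3 lower in the lung cells than in LSEC_0h, beside 19.8% and 27.7% of all genes. At 2 h 14 of them were higher and 2 lower than in LSEC_0h, beside 41.4% and 32.7% of all genes. In LSEC_0h 11 of the 19 had a mean under 6.5, and 66.3% of the dim genes were higher at 2 h. The array means of this list were 7.83 to 8.56 in LMEC_0h, 6.98 to 7.69 in LSEC_2h and 6.58 to 6.97 in LSEC_0h. Reln, Hgf and Lrat of this list had lower means in LMEC_0h than in LSEC_0h. Mgp and Bgn belong both to this list and to the venous and arterial markers. Of 18 lymphocyte markers, 11 of them with an LSEC_0h mean under 6.5, 10 were higher in LMEC_0h and 10 at 2 h than in LSEC_0h. Over all genes 19.8% were higher in LMEC_0h and 41.4% at 2 h, and 66.3% of the dim genes were higher at 2 h. The lymphocyte list had array means of 6.5 to 7.52 in LMEC_0h, 7.24 to 7.65 in LSEC_2h and 6.46 to 6.68 in LSEC_0h. Gzma, a cytotoxic granule protease, was 15.7-fold higher at 2 h than in LSEC_0h.

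Macrophages, including Kupffer cells, carry Icam1 and Vcam1 too. Of their 10 markers, 7 were lower at 2 h and 9 at 42 h than in LSEC_0h, with array means of 8.10 to 10.8 in LSEC_0h, 7.1 to 7.74 in LSEC_2h and 6.55 to 6.94 in LSEC_42h. Over all genes 32.7% were lower at 2 h and 20.8% at 42 h. In LMEC_0h 1 of the 10 was higher and 7 were lower than in LSEC_0h, beside 19.8% and 27.7% of all genes. The LMEC_0h array means of this list were 7.1 to 8.4. Among the LSEC_0h arrays the macrophage mean was 10.8 on array 15, which had the highest Icam1 and Vcam1, 9.83 and 9.54. It was 9.72 on array 13, which had the lowest Vcam1, 8.96, and 9.14 on array 16, which had the lowest Icam1, 9.31.

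Each gene's closest companions over the 18 arrays were ranked by Pearson's r, which here mostly reflects the 4 group means and is given as a description. Vwf was closest to Car4, a carbonic anhydrase (r = 0.994), which averaged 11.1 in LMEC_0h, 6.53 in LSEC_0h, 7.44 in LSEC_2h and 6.5 in LSEC_42h, and then to A3galt2, Atp2a3, Rasgef1a and Mamdc2. Selp was closest to Sele (r = 0.944), then to Nfkbid, Hdgfl3, Otud7a and Phospho1. Sele was closest to Hdgfl3 (r = 0.982) and then to the cytokine Il6 (r = 0.966), Nfkbid, Tnfrsf11a and Cish. Icam1 was closest to the kinase gene Map3k8 (r = 0.989), which averaged 10.3 in LMEC_0h, 7.72 in LSEC_0h, 10.5 in LSEC_2h and 7.26 in LSEC_42h, and then to Nr4a2, Cdkn1a, Rassf1 and Ccnl1. Vcam1 was closest to Ccrl2, an atypical chemoattractant receptor (r = 0.989), then to Slc66a2, Tap1, Mafk and Map3k8. Map3k8 was thus among the 5 closest genes of both Icam1 and Vcam1, and Nfkbid and Hdgfl3 among those of both selectins.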

How the data were processed

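Each deposited value is a log2 level of a probe set on an Affymetrix rat array hybridised with biotinylated cRNA. Software and normalization behind it are not stated in the sources used here, and the unit was read from the values. Of 11484 probe sets, 57 were controls. The platform annotation gave 1 symbol to 11018 of 11427 gene probe sets and none to 409, which were not tested.

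All 18 arrays entered 1 fit in limma 3.58.1 (R 4.3.3), with a mean per group and an intensity trend. Tests were two-sided, with Benjamini-Hochberg adjustment over 11018 genes. The procedure was tested on simulated data. Arrays give no counts, so the number of arrays limits the precision. No 2 arrays held identical values.

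The genes and lists were chosen with earlier results of these data known. Named list members are called ones, up to 6 per direction for the 4 related lists and up to 4 for others, direct partners of the 5 genes, and the 5 genes with the highest r. Alternatives were quantile normalization, median centring, a filter on dim genes, only the compared groups, array weights, no trend, every gene probe set, a 1.5-fold test, and leaving out arrays. Python 3.11.15 and pandas 2.3.3 did the rest.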

Additional observations from a re-analysis of the deposited data

Results flagged for a closer look

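In each group of 4 or 5 arrays the highest and lowest value of each gene was set against the others by Dixon's test at the 95% level. Chance alone marks about 1 in 20 groups, and 2 of the 20 combinations of gene and group were marked. Selp had 6.36 on LSEC_0h array 17, above the other 4 fresh liver arrays, which lay between 6.20 and 6.23. All 5 of these values lie near the level of absent controls. Vcam1 had 12.29 on LSEC_2h array 4, above the other 3 arrays of that time, which lay between 11.72 and 11.80. The same array also had the highest Icam1 of its group, 12.65.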

How the results depend on the processing

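Of 300 differences recomputed with other settings than the omission of single arrays, 280 kept their direction and their side of the threshold. Quantile normalization turned Icam1 in LSEC_2h against LMEC_0h to -0.047 (adjusted p = 0.903). With arrays centred on their medians Sele was -0.91 in LSEC_42h against LSEC_2h (0.0498) and Vcam1 0.65 in LSEC_2h against LMEC_0h (0.0457), both then called. Without dim genes 6803 genes stayed, and the called genes were 5108 for LSEC_2h against LSEC_0h, 4963 for LSEC_42h against LSEC_2h and 4942 for LSEC_2h against LMEC_0h, since fewer genes were tested. With only the compared groups in the fit, Sele (0.57, 0.0116) and Icam1 (-0.54, 0.0191) were called in LSEC_42h against LSEC_0h, and Sele (-0.85, 0.00529) in LSEC_42h against LSEC_2h. With array weights Icam1 was -0.65 in LSEC_42h against LSEC_0h (0.00805), Vcam1 0.77 in LSEC_2h against LMEC_0h (0.0131), both called, and Selp 0.048 in LSEC_42h against LSEC_2h (0.911). A test against a 1.5-fold change called 1088 genes in LMEC_0h, 1692 in LSEC_2h and 1035 in LSEC_42h against LSEC_0h, 1769 in LSEC_42h against LSEC_2h, and 1615 in LSEC_2h and 1523 in LSEC_42h against LMEC_0h. It did not call Selp (1.45, 0.13) and Sele (1.42, 0.118) at 2 h, Vwf (-0.44, 1), Selp (1.21, 0.469) and Vcam1 (-1.30, 0.099) at 42 h, each against LSEC_0h, or Selp in LSEC_2h against LMEC_0h (-1.50, 0.114). Without lung arrays 19 and 22, the highest lung arrays of the 4 leukocyte adhesion genes, whose omission narrows the spread and lowers the lung means by construction, Sele (0.57, 0.0224) and Icam1 (-0.54, 0.0188) were called in LSEC_42h against LSEC_0h, Sele (-0.85, 0.0018) in LSEC_42h against LSEC_2h, and Icam1 (0.56, 0.0231) and Vcam1 (1.14, 4.85e-05) in LSEC_2h against LMEC_0h. The cause of these changes was not tested, apart from the smaller number of genes.

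Leaving out each array in turn changed 10 of 540 values. Selp in LSEC_42h against LSEC_0h ranged from 1.03 to 1.41, and its call was lost without LSEC_42h array 1 (1.08) or 3 (1.03). Sele in LSEC_42h against LSEC_2h ranged from -1.01 to -0.68 and was called without LSEC_42h array 2 or LMEC_0h array 18, 19 or 22. Icam1 in LSEC_42h against LSEC_0h ranged from -0.69 to -0.43 and was called without LMEC_0h array 18. Icam1 in LSEC_2h against LMEC_0h ranged from -0.10 to 0.28, turning sign without LMEC_0h array 18 (-0.10, adjusted p = 0.694). Vcam1 in that comparison ranged from 0.39 to 0.81 and was called without LMEC_0h array 19 or 22. No paired analysis was possible because the groups share no replicate number. Selp and Sele in LSEC_0h lie at background, which leaves the size of their folds uncertain.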
